A study of Mus musculus with 14 samples.

Results

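This account is of mouse hepatoblasts that carried the IDH1 mutant R132C, set against hepatoblasts that carried wild-type IDH1, both on collagen-coated plates. The 2 groups were taken by their sample labels and held 4 of the 14 arrays of the series, 2 cultures each, and all 12393 genes with a probe set of their own were compared. Hepatoblasts are the progenitors of the fetal liver that can become hepatocytes or bile duct cells. These came from wild-type embryos at day 14, had been immortalised by plating at a density low enough for single cells to found colonies, and grew with epidermal growth factor, insulin-like growth factor II and insulin in 10% serum. The 4 cultures differed in the IDH1 form they carried, which stood under a doxycycline-inducible system. Doxycycline at 25 ng/mL was in the medium of the IDH1 experiments, so the wild-type controls carried an extra IDH1 as well. How many clones each line came from, and the species of the introduced IDH1, are not given in the sources used here. Beside them stand cells with empty vector on collagen, cells on collagen that carried IDH2, either wild type or with the mutation R172K, and cells with vector or R132C on plates without coating, where they stayed 5 days at most, with 2 cultures in each group. For the vector and IDH2 cultures doxycycline is not stated.

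IDH1 is the cytosolic isocitrate dehydrogenase. It turns isocitrate into 2-oxoglutarate and makes NADPH on the way. The R132C form, found in cholangiocarcinoma (cancer of the bile ducts) and other tumours, instead reduces 2-oxoglutarate to 2-hydroxyglutarate, which competes with 2-oxoglutarate at dioxygenases such as the TET enzymes, histone demethylases and prolyl hydroxylases. R172K is the corresponding change in the mitochondrial enzyme IDH2. By its title, the study was concerned with mutant IDH, the transcription factor HNF4a, hepatocyte differentiation and cholangiocarcinoma.

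RNA was read on Affymetrix arrays as probe set intensity, and every level below is the log2 of that intensity. The medians of the 4 arrays lay between 144.4 and 147.5 intensity units. Across genes, replicates correlated at r = 0.997 with wild-type IDH1 and 0.998 with R132C. The lower quartile of the arrays stood near log2 4.75, so a gene no brighter than that has little signal above background. The precision is limited by having only 2 cultures a group, for which an exact two-sided permutation test of a single gene could not go below p = 0.333. All p-values therefore come from limma, a linear model fitted to all genes and all 14 arrays, with Benjamini-Hochberg adjustment over all 12393 genes. A gene is called when this adjusted p is under 0.05.

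The cells showed epithelial and partly hepatoblast character in both groups, beside mesenchymal markers. Krt19, a keratin of bile duct cells and hepatoblasts, stood at 13.85 and 13.95 with wild-type IDH1 and at 13.94 and 13.95 with R132C. Afp, the fetal liver form of albumin, stood above 10 in all 4 cultures, whereas Alb (albumin) lay between 4.46 and 4.79 and Dlk1, a surface marker of hepatoblasts, between 5.22 and 5.37, both near the lower quartile. Of 12 blood cell markers, 8 had a mean level above the lower quartile. Ptprc, the pan-leukocyte marker, was not among these, and the summed intensity of the list was 1163 to 1178 with wild-type IDH1 and 1014 to 1084 with R132C. Of 14 endothelial markers, 6 were above it, and their summed intensity was 735.7 to 746.6 with wild-type IDH1 and 779.9 to 834.1 with R132C. Pecam1 and Cdh5, which define endothelium, were not among these. Of 24 mesenchymal markers, 17 had a mean level above the lower quartile. Their summed intensity was 31160 to 32970 with wild-type IDH1 and 31310 to 32930 with R132C. For the 14 hepatoblast genes it was 32690 to 33440 and 31510 to 32470. Vim, a mesenchymal marker and an intermediate filament gene common in cultured cells, was high in both groups, with a mean of 14.0 over all arrays. The part of these markers in the results was not tested.

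The Idh1 probe set does not show which form a culture carried. Idh1 stood at 11.99 and 12.13 with wild-type IDH1, at 11.81 and 11.97 with R132C and at 11.97 and 12.26 with empty vector. The vector cultures were as high as those given IDH1, so this probe set checks nothing about the labels. Idh2, the mitochondrial enzyme, differed by 0.06 (SE 0.08) between the groups.

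A total of 6 genes were called, and in all of them R132C cells were higher (0.0484% of the genes tested were called higher, and 0% lower). They encode a cytokine receptor subunit, a growth factor, a cornified envelope protein, a tyrosine phosphatase, a collagen-binding membrane protein and a scaffold of the cytoskeleton. Without adjustment, 432 genes had p under 0.05 and were higher and 500 were lower, which is 3.49% and 4.03% of all genes. The 2 cultures of R132C lay wholly above the 2 of wild-type IDH1 for 2735 genes (22.1%) and wholly below for 2528 (20.4%). The median difference over all genes was 0.01. Differences were small in general. Only 20 genes differed by 2-fold or more, and the extremes were 1.81 and -1.36 on the log2 scale.

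Lifr, the receptor subunit shared by leukemia inhibitory factor and oncostatin M, stood at 5.82 and 5.49 with wild-type IDH1 and at 6.67 and 7.26 with R132C. It rose by 1.31 (SE 0.20, limma adjusted p = 0.047), a 2.48-fold difference, and its R132C cultures were also above both vector cultures, at 5.90 and 6.27. Scel (sciellin), a precursor of the cornified envelope of squamous epithelia, stood at 7.80 and 7.56 with wild-type IDH1 and at 8.93 and 8.74 with R132C. Its rise was 1.16 (SE 0.16, limma adjusted p = 0.045), and the vector cultures at 8.07 and 7.48 lay on the wild-type side. Fgf18, a secreted fibroblast growth factor, stood at 6.35 and 6.10 with wild-type IDH1 against 7.44 and 7.24 with R132C. That is a rise of 1.12 (SE 0.16, limma adjusted p = 0.045), with vector between them at 6.56 and 6.47.

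The other three rose by less, and their replicates lay close together. Ptprr, a receptor-type tyrosine phosphatase that acts on ERK kinases, stood at 6.51 and 6.57 with wild-type IDH1 and at 7.36 and 7.38 with R132C, a rise of 0.83 (SE 0.12, limma adjusted p = 0.045). Antxr1, a membrane protein that binds collagen and anthrax toxin, stood at 8.05 and 8.02 and at 8.82 and 8.89, a rise of 0.82 (SE 0.12, limma adjusted p = 0.045). Iqgap2, a scaffold protein that binds actin and small GTPases and is abundant in liver, stood at 8.47 and 8.36 and at 9.22 and 9.25, a rise of 0.82 (SE 0.13, limma adjusted p = 0.047). The vector cultures lay at 6.66 and 6.67 for Ptprr, 8.16 and 8.39 for Antxr1 and 8.83 and 8.74 for Iqgap2. In each case they were above wild-type IDH1 and below R132C.

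The calls sit close to the threshold. None of the 6 remained with the arrays centred on their median, with cyclic loess or quantile normalization, with a gene's probe sets averaged (Lifr then differed by 0.51 and Antxr1 by 0.41) or with only the 10 collagen arrays. None remained either when any 1 of the 4 arrays compared, a wild-type IDH2 array or an uncoated array was left out, and 2 remained without either R172K array. Other probe sets of Lifr and Antxr1 were less bright and did not show a rise of this size. The 2 others of Lifr differed by 0.05 and 0.16 at mean levels of 5.25 and 4.53, and the other of Antxr1 by -0.01 at 4.88. With wild-type IDH1 the probe set used for Lifr stood at 5.65 and the others at 5.21 and 4.14.

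**Figure D1:**
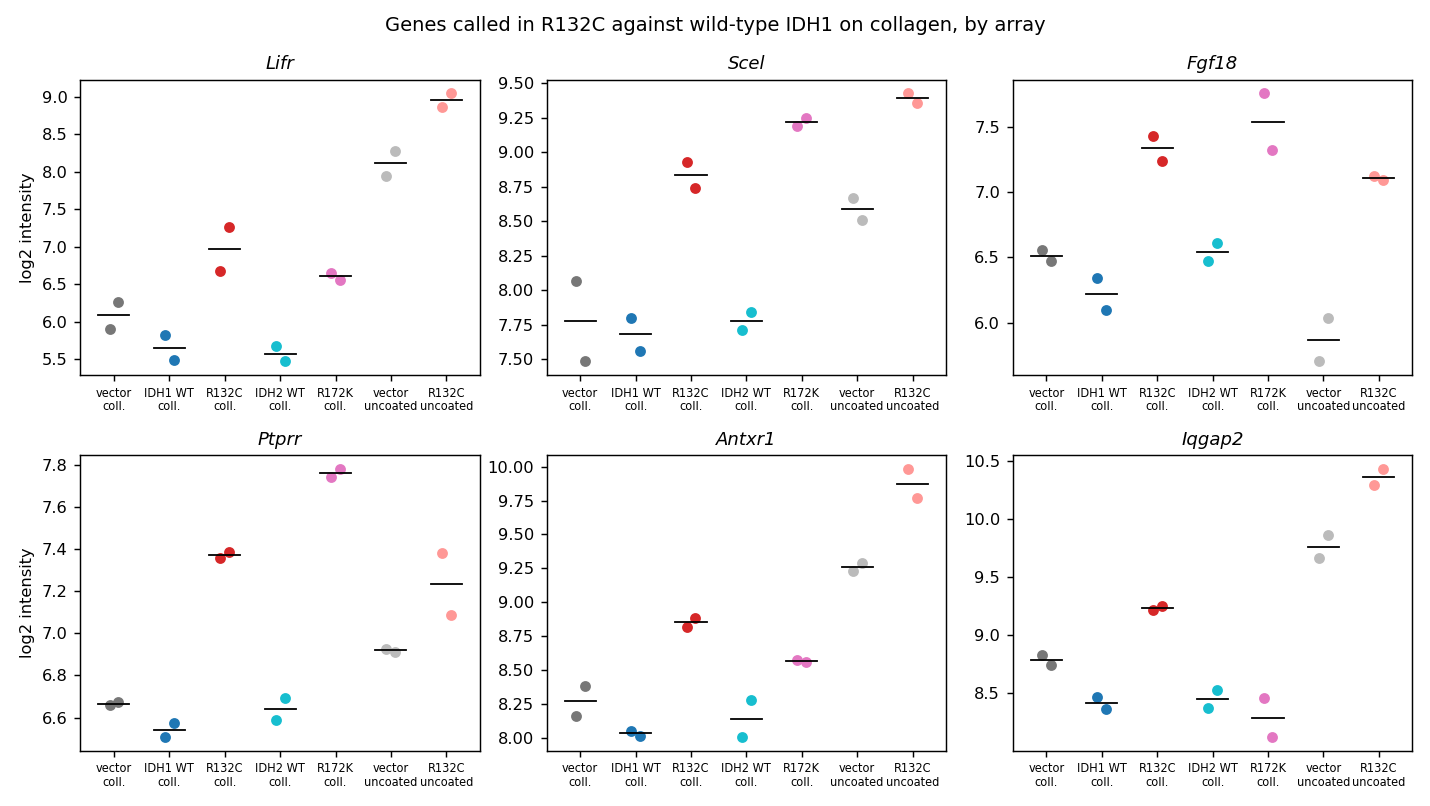
Log2 intensity of the 6 called genes in all 14 arrays, 1 panel a gene, with 1 point a culture and a black line at the mean of each group of 2; the vertical axes differ between panels. On collagen both R132C cultures lie above all 4 cultures with vector or wild-type IDH1 in every panel, and R172K lies above wild-type IDH2 in all but Iqgap2.

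The promoters of the called genes are shown because DNA methylation, which falls on the C of CpG and which TET enzymes help remove, is one of the processes that depend on 2-oxoglutarate. RefSeq promoter windows (build GRCm38.p6, from 250 bases before to 50 bases after the start) were found for 5 of the 6, Antxr1 being without one. Printed are the 150 bases just before the start, 5′ to 3′ on the gene's strand, with every CpG in capitals: Lifr on the + strand at chr15:7129422-7129571, Fgf18 on the - strand at chr11:33147401-33147550, Iqgap2 on the - strand at chr13:95891923-95892072, Scel on the + strand at chr14:103513191-103513340 and Ptprr on the + strand at chr10:116018213-116018362. Lifr has 2 windows and Ptprr 4, and the first listed was taken.
Lifr: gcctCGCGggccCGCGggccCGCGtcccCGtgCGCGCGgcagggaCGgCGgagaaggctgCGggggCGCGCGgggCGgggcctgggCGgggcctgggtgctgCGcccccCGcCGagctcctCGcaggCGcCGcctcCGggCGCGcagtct
Fgf18: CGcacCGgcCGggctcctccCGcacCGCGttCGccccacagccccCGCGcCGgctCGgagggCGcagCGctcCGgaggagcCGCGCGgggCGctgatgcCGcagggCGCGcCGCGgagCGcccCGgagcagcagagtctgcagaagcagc
Iqgap2: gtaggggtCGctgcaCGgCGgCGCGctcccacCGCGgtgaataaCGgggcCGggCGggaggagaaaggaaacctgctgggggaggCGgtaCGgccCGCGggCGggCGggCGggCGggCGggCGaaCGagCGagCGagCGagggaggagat
Scel: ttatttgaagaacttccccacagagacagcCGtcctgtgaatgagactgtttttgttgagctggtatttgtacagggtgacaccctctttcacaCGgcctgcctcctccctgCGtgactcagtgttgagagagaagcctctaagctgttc
Ptprr: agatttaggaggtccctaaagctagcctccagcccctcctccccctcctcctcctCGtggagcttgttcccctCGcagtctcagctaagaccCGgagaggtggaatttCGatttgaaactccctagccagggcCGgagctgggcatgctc

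Lifr, Fgf18 and Iqgap2 have CpG-dense starts, with 27, 25 and 24 CpG in the printed stretch, and Scel and Ptprr have sparse ones, with 3 and 5. The printed stretch of Scel holds the AP-1 motif TGACTCA, searched on both strands, which stands in 5.2% of the 32851 mouse windows of the same table. None of the 5 windows holds the HNF4 motif CAAAGTCCA (0.475% of windows), the hypoxia motif ACGTG (19.6%) or the C/EBP motif TTGCGCAA (0.183%). These are matches of letters only. A comparison of CpG content between called genes and all genes is void, because only 9887 of the 12393 genes tested (79.8%, under the 80% needed) have a window. The arrays measured no methylation.

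Of the genes that came next by unadjusted p, with no overlap between the groups and none of them called, 6 were higher with R132C. Mt2, a metallothionein that binds zinc and other metals, stood at 9.09 and 9.01 with wild-type IDH1 and at 10.04 and 10.39 with R132C (difference 1.16, SE 0.21, limma adjusted p = 0.10). Celsr1, a cadherin of planar cell polarity, differed by 0.93 (SE 0.18), Tmprss2, a transmembrane serine protease, by 0.84 (SE 0.15), and Wnt4, a Wnt ligand, by 0.70 (SE 0.14). Dusp3, a dual-specificity phosphatase, differed by 0.48 (SE 0.10) with R132C cultures at 9.82 and 9.81. Aqp8, a water channel, differed by 1.01 (SE 0.21), but its wild-type cultures at 4.09 and 4.39 were at background and those with R132C at 5.44 and 5.06 just above.

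On the lower side 12 genes were followed, and none was called. The nearest was Eno3, a muscle and liver form of the glycolytic enzyme enolase, with a mean of 11.97 in wild-type IDH1 cultures and single R132C cultures at 11.45 and 11.53 (difference -0.48, SE 0.08, limma adjusted p = 0.051). Casd1, a sialic acid O-acetyltransferase, had the largest difference of the 12 by its brightest probe set, from 7.15 and 7.18 to 5.69 and 6.21 (-1.21, SE 0.20). Cflar, an inhibitor of caspase-8, differed by -0.58 (SE 0.09), and Tnfaip2, a gene induced by tumour necrosis factor, by -0.80 (SE 0.15). Irgm1, an interferon-induced GTPase, differed by -0.61 (SE 0.11), and Plekha2, a phosphoinositide-binding adaptor, by -0.48 (SE 0.09).

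Spint1, an inhibitor of the protease that activates hepatocyte growth factor, differed by -0.73 (SE 0.14), and Krt20, an intestinal keratin, by -0.54 (SE 0.11). Plin2, which coats lipid droplets, differed by -0.52 (SE 0.10), and Errfi1, a feedback inhibitor of the EGF receptor, by -0.48 (SE 0.09). Gcc2, a Golgi protein, differed by -0.72 (SE 0.14) and Cnpy2, an endoplasmic reticulum protein, by -0.48 (SE 0.09). The adjusted p-values of these 12 ran from 0.051 to 0.127 in limma, and with array weights all 12 were called. With probe sets averaged, cyclic loess, quantile normalization, median centring, no intensity trend or only the 10 collagen arrays 0 were called. Only the groups compared gave 1 of the 12, and a filter at the 30th percentile of level gave 2. Fits with a block for the replicate number are described at the end. Of the 24 genes described so far, 10 had other probe sets, 14 in all, and 13 of these had the same sign as the one used, some at a much smaller size. The other of Tmprss2 differed by 0.07 at a mean level of 6.07 and that of Casd1 by -0.14 at 4.75, and with probe sets averaged Tmprss2 differed by 0.45 and Casd1 by -0.68.

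**Figure D2:**
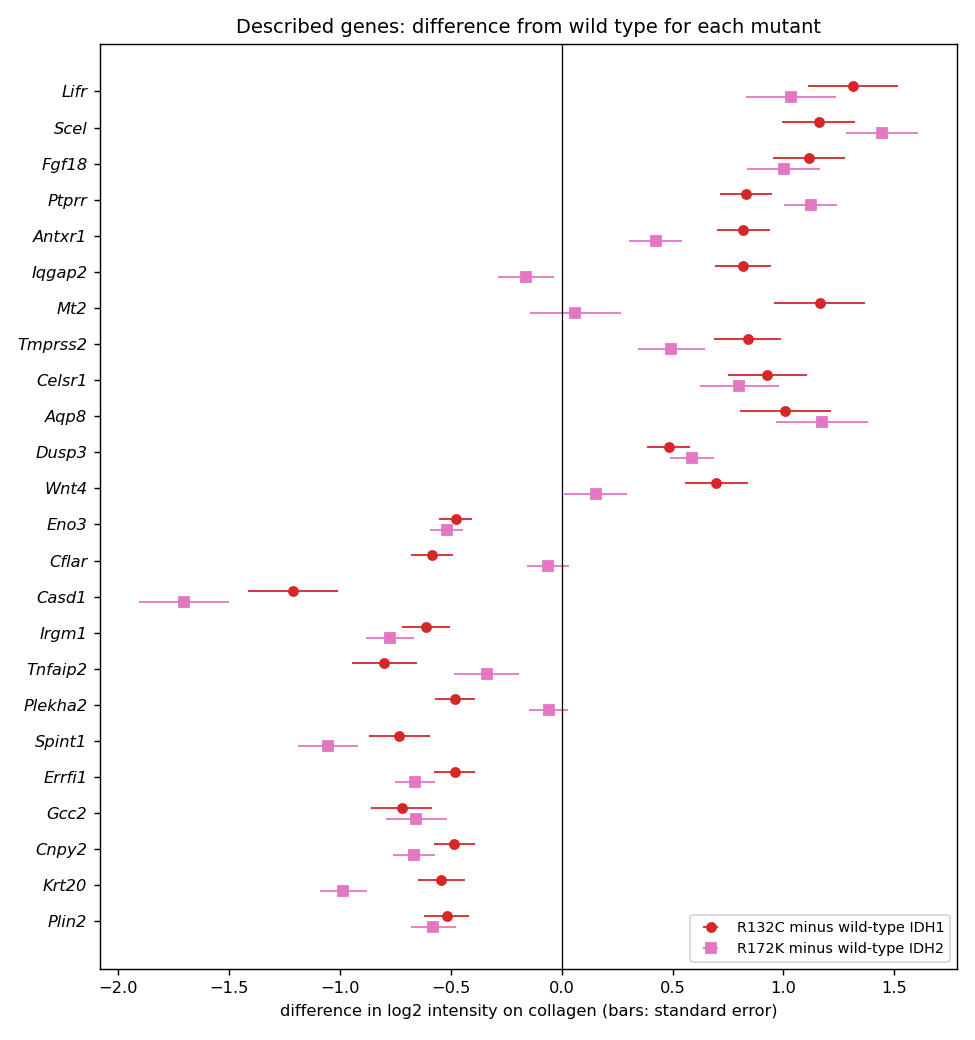
Difference from wild type in log2 intensity on collagen for the 24 genes described, 6 of them called with R132C, with bars of 1 standard error: circles for R132C minus wild-type IDH1, squares for R172K minus wild-type IDH2. The squares lie on the same side of 0 as the circles for 23 of the 24 genes, with Iqgap2 the exception. Aqp8 is among the 23, but on the IDH1 side it stood above the lower quartile only with R132C. It supports nothing here.

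Of the 20 genes that differed by 2-fold or more, 13 were higher and 7 lower, and 3 (Lifr, Scel and Fgf18) were called. None of the 20 overlapped between the groups. Among those not yet described, which were chosen after their values were seen, the largest was Lbp, the lipopolysaccharide-binding protein of the acute phase, at 6.96 in both wild-type cultures and at 8.47 and 9.06 with R132C (difference 1.81, SE 0.41, limma adjusted p = 0.199). The vector cultures stood at 6.78 and 8.38, so they spanned nearly the whole gap. Prss23, a secreted serine protease, stood at 7.95 and 7.07 with wild-type IDH1 and at 8.98 and 9.13 with R132C (difference 1.54, SE 0.33, limma adjusted p = 0.158). Aldh3a1, an aldehyde dehydrogenase, differed by 1.17 (SE 0.37), Enpep, an aminopeptidase, by 1.10 (SE 0.29), and Wnt7a, a Wnt ligand, by 1.04 (SE 0.33). Cebpd, a C/EBP factor of the acute phase response, differed by 1.06 (SE 0.28) from a background level. Mest, an imprinted gene, differed by 1.03 (SE 0.22) and Dlk2, a relative of Dlk1, by 1.03 (SE 0.28). For Enpep, Cebpd and Dlk2 the vector cultures overlapped those with R132C. Vector stood at 4.878 and 5.591 for Enpep against 5.588 and 5.850 with R132C. For Cebpd it stood at 4.12 and 4.91 against 4.75 and 5.64, and for Dlk2 at 7.51 and 6.86 against 8.22 and 7.43.

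On the lower side, Nrk, a kinase, differed by -1.36 (SE 0.49), Glrp1 by -1.34 (SE 0.44), and Cyp39a1, a hydroxylase of oxysterols, by -1.14 (SE 0.42). Adam8, a cell surface metalloprotease, differed by -1.09 (SE 0.31), Bcl2l15 by -1.05 (SE 0.27), and Gjb5, a connexin, by -1.03 (SE 0.38). Replicates spread widely for several of these: the wild-type cultures of Cyp39a1 stood at 7.84 and 8.85 and those of Gjb5 at 5.53 and 6.54. For Cyp39a1 vector at 7.504 and 8.669 overlapped R132C at 6.902 and 7.519.

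**Figure D3:**
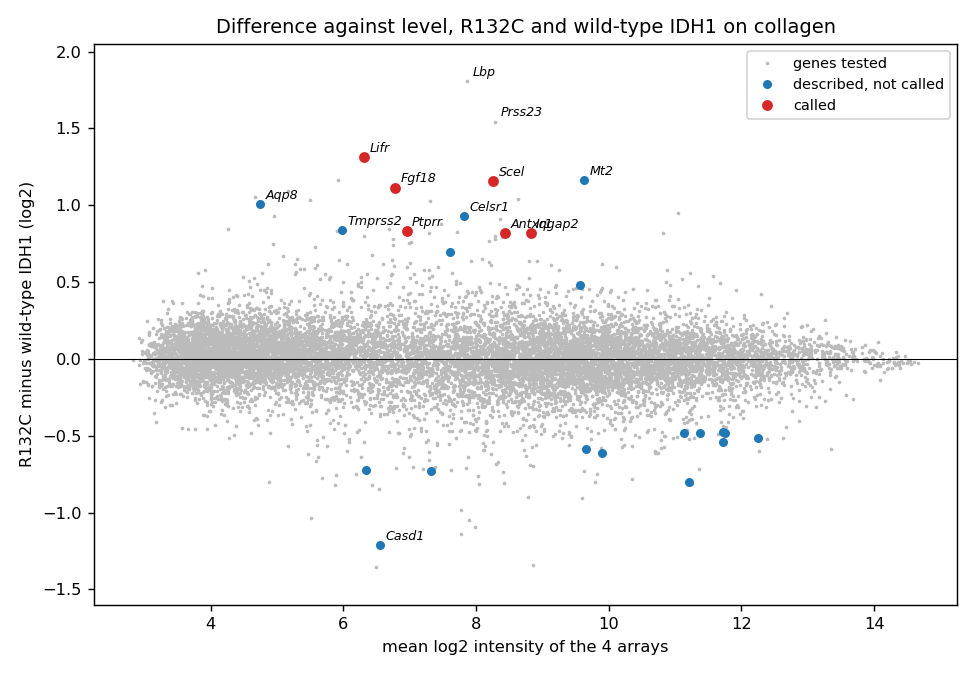
Difference between R132C and wild-type IDH1 on collagen (log2, vertical) against the mean log2 intensity of the 4 arrays (horizontal), 1 grey point for each of 12393 genes, red points for the 6 called and blue for the other 18 described. The called genes lie between 0.82 and 1.31, and larger differences such as that of Lbp at 1.81 were not called.

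None of the enzymes on which 2-hydroxyglutarate bears was called. Here and below, lists of genes are given by how many of their measured members did not overlap between the groups, higher or lower with R132C, and by their median difference, to be read beside 22.1%, 20.4% and 0.01 over all genes. No list had a called member. Among 11 isocitrate dehydrogenases and enzymes that make or break 2-hydroxyglutarate, 4 were higher and 2 lower, with a median of 0.02. D2hgdh, which oxidises D-2-hydroxyglutarate back to 2-oxoglutarate, differed by 0.19 (SE 0.12), and Idh3a, of the NAD-dependent enzyme, by 0.16 (SE 0.12). Among 19 DNA and histone demethylases 4 were higher and 4 lower, with a median of 0.02, and Kdm5b, a demethylase of histone H3 lysine 4, differed by -0.29 (SE 0.14).

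Among 15 prolyl and lysyl hydroxylases 3 were higher and 2 lower, with a median of 0.08. P4ha2, a collagen prolyl hydroxylase, stood at 7.48 and 7.73 with wild-type IDH1 and at 8.04 and 8.44 with R132C (difference 0.64, SE 0.23, limma adjusted p = 0.504). Egln3, a prolyl hydroxylase of hypoxia-inducible factor, differed by 0.45 (SE 0.20). Among 16 DNA methyltransferases and subunits of Polycomb repressive complex 2, which methylates histone H3 lysine 27, 3 were higher and 3 lower. Suz12, a core subunit, differed by 0.23 (SE 0.08), Aebp2, an accessory one, by -0.25 (SE 0.08), and the catalytic subunits Ezh1 and Ezh2 by -0.33 (SE 0.14) and 0.11 (SE 0.10). Of 30 genes of glycolysis and the hypoxia response 7 were higher and 2 lower, with a median of -0.015. Of 32 genes of the citric acid cycle, pyruvate and glutamate 9 were higher and 4 lower, and Ogdh, which oxidises 2-oxoglutarate, differed by 0.34 (SE 0.10).

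None of the liver lineage genes on the lists was called. Hnf4a, the nuclear receptor that drives hepatocyte differentiation, stood at 11.55 and 11.50 with wild-type IDH1 and at 11.24 and 10.98 with R132C. The difference was -0.41 (SE 0.11, limma adjusted p = 0.30), and vector stood with wild-type IDH1 at 11.51 and 11.61. Other probe sets of Hnf4a differed by -0.57 (SE 0.11) at a mean level of 9.70, -0.48 (SE 0.19) at 6.84 and -0.12 (SE 0.15) at 6.14. Of 18 hepatocyte transcription factors 2 were higher and 5 lower, with a median of 0.03. The lower ones included Tbx3, a T-box repressor of hepatoblasts, at -0.47 (SE 0.17), Nr1h4, the bile acid receptor, at -0.33 (SE 0.12), and Hhex, an early liver bud factor, at -0.25 (SE 0.15). Cebpa, a hepatocyte factor, differed by 0.39 (SE 0.20). With 1 array left out Hhex ran from -0.43 to -0.06 and Cebpa from 0.14 to 0.63, and with its probe sets averaged Tbx3 differed by -0.13. Levels of this list summed to 16170 and 16820 intensity units with wild-type IDH1, 14890 and 15490 with R132C and 16660 and 18330 with vector. The sum weighs bright members such as Hhex and Hnf4a most, with means of 11.79 and 11.52 with wild-type IDH1. Of the 18 members 10 had a positive difference.

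Of 25 secreted hepatocyte proteins 7 were higher and 2 lower, with a median of 0.09, and 11 of them have a mean level at or under the lower quartile. Rbp4, the retinol carrier, stood at 12.78 and 12.99 with wild-type IDH1 and at 12.37 in both R132C cultures (difference -0.52, SE 0.14, limma adjusted p = 0.284), and Apob, the apolipoprotein of very low density lipoprotein, differed by -0.36 (SE 0.29) with overlapping groups. Of the 25 members 16 had a positive difference. The summed intensity of the list, most of which comes from Rbp4 and Apob, was 13140 to 13190 with wild-type IDH1, 9921 to 10280 with R132C and 13240 to 15620 with vector. Of 21 genes of hepatocyte metabolism 4 were higher and 5 lower, with a median of -0.04. Of 28 cytochrome P450 and conjugating enzymes 6 were higher and 6 lower, among them Cyp3a13, a drug-metabolising enzyme, at -0.63 (SE 0.14), Ephx2, an epoxide hydrolase, at -0.46 (SE 0.12), and Mgst2, a glutathione transferase, at -0.37 (SE 0.11).

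The 14 hepatoblast genes divided evenly, with 5 higher and 5 lower. Afp stood at 10.43 and 10.71 with wild-type IDH1, at 11.47 and 11.57 with R132C and at 10.64 and 10.63 with vector, so the 2 R132C cultures were apart from the other 4. Its difference was 0.95 (SE 0.21, limma adjusted p = 0.184). Id1 and Id3, inhibitors of helix-loop-helix factors and targets of BMP signalling, differed by 0.56 (SE 0.14) and 0.34 (SE 0.12), while the more abundant Id2 differed by -0.10 (SE 0.07). Hmga2, a fetal chromatin protein, differed by -0.27 (SE 0.07), with R132C at 13.13 and 13.12 and all 4 other cultures between 13.32 and 13.40.

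Of 16 biliary markers 2 were higher and 5 lower, with a median of 0.04 and a positive difference in 9. Krt7 and Krt19, the defining keratins, differed by 0.03 (SE 0.17) and 0.05 (SE 0.08). Sox9, a biliary transcription factor, differed by 0.48 (SE 0.25, and 0.24 to 0.72 with 1 array left out). Its R132C cultures at 7.36 and 7.51 lay between the vector cultures at 7.04 and 7.67, and R132C differed from vector by 0.07. Epcam, an epithelial adhesion molecule, differed from wild-type IDH1 by -0.56 (SE 0.21), and the Notch ligand Jag1 by -0.47 (SE 0.11). Of 32 keratins and junction genes 2 were higher and 9 lower, with a median of -0.06, and Krt18 and Cdh1 (E-cadherin) differed by -0.14 (SE 0.05) and -0.26 (SE 0.12). Of 24 mesenchymal markers 3 were higher and 3 lower, with a median of 0.00.

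Of 28 genes best known from the intestine and stomach 5 were higher (17.9%) and 7 lower (25%), with a median of -0.06, near the shares of all genes. The higher ones stood between 3.98 and 5.86 in mean level, among them Muc13, a membrane mucin, at 0.20 (SE 0.13), and Spink4, a secreted protease inhibitor, at 0.32 (SE 0.16). Lgals2, a galectin of the gut epithelium, stood at 13.65 and 13.62 with wild-type IDH1, at 13.23 and 12.86 with R132C and at 13.74 and 13.70 with vector (difference -0.59, SE 0.12, limma adjusted p = 0.143). Vil1, the microvillus protein villin, differed by -0.57 (SE 0.15), Cdh17, the liver-intestine cadherin, by -0.52 (SE 0.16), Tm4sf4, a tetraspanin-like protein, by -0.41 (SE 0.09), and Anxa13, an annexin of gut and bile duct, by -0.25 (SE 0.07). For Lgals2, Vil1, Cdh17, Tm4sf4 and Anxa13 both R132C cultures lay below all 4 cultures with wild-type IDH1 or vector.

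**Figure D4:**
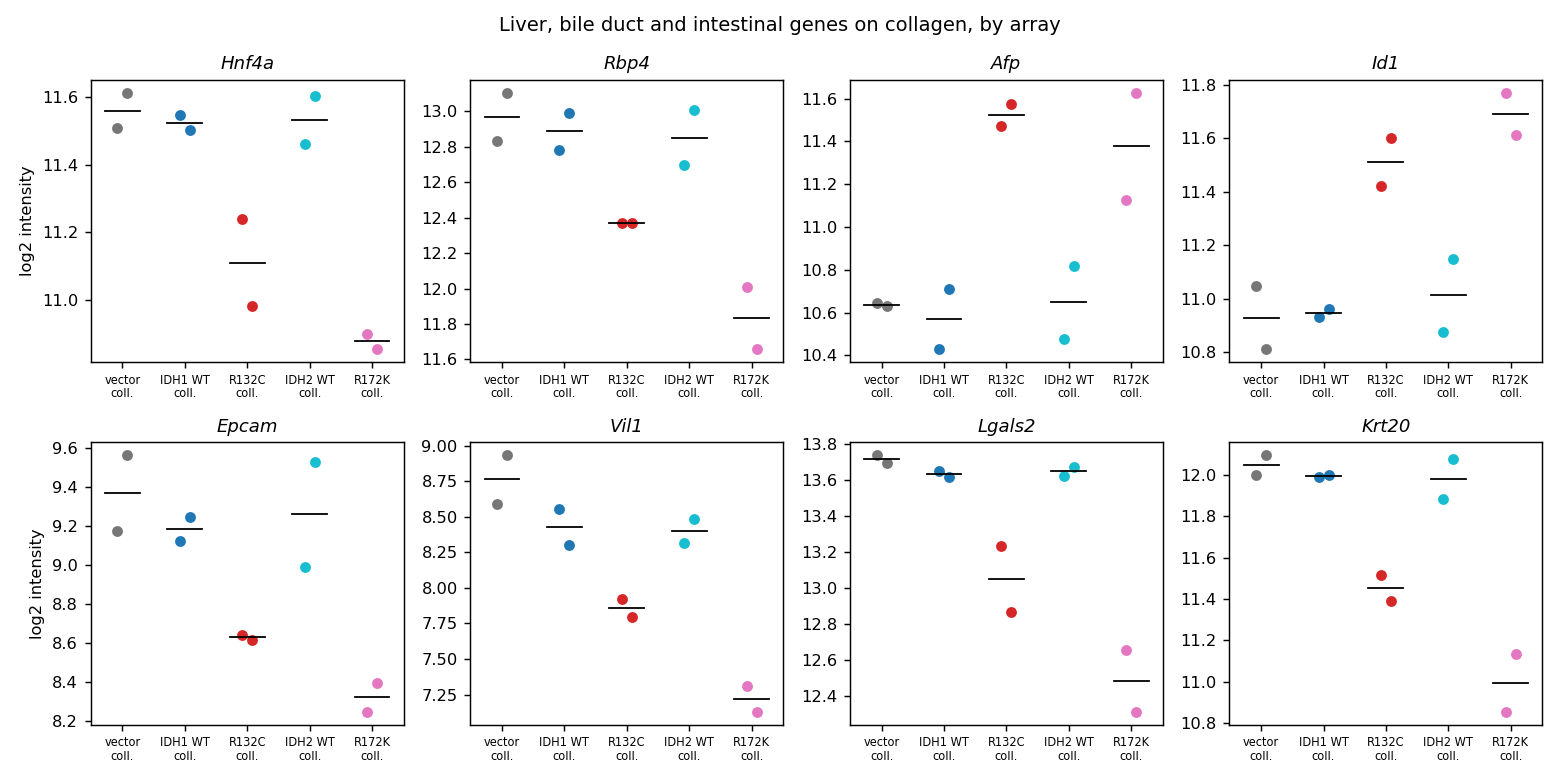
Log2 intensity of 8 liver, bile duct and intestinal genes in the 10 arrays on collagen, 1 point a culture and a black line at each group's mean of 2; the vertical axes differ between panels and do not start at 0. R132C lies below wild-type IDH1 and vector for Hnf4a, Rbp4, Epcam, Vil1, Lgals2 and Krt20 and above them for Afp and Id1. R172K lies on the same side of wild-type IDH2 in all 8. The 8 were picked as single genes and do not stand for their lists. With R132C 10 of 18 hepatocyte transcription factors, 16 of 25 secreted hepatocyte proteins and 9 of 16 biliary markers had a positive difference. So did 9 of 28 intestinal genes.

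Proliferation genes were slightly but widely higher. Of 33 genes of mitosis 25 were higher and 1 lower, with a median of 0.18, and of 41 genes of DNA replication and repair 25 were higher and 1 lower, also with a median of 0.18. Of 33 genes of ribosome biogenesis 20 were higher and 2 lower, with a median of 0.14. Single members moved by little more than their error. Birc5, the mitotic protein survivin, stood at 11.46 and 11.17 with wild-type IDH1 and at 11.76 and 11.66 with R132C (difference 0.40, SE 0.21, limma adjusted p = 0.712), and Mcm3, of the replicative helicase, differed by 0.34 (SE 0.17). Ccna2 (cyclin A2) differed by 0.31 (SE 0.17), Plk1, a mitotic kinase, by 0.29 (SE 0.15), and Top2a, a topoisomerase, by 0.22 (SE 0.15).

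For Birc5 and Mcm3, replicate 1 of vector and of wild-type IDH1 lay nearer to R132C than replicate 2: vector stood at 11.65 and 11.07 for Birc5 and at 10.75 and 10.35 for Mcm3. The part of this difference between replicates in the values of the lists was not tested. Odc1, the rate-limiting enzyme of polyamine synthesis, differed by 0.26 (SE 0.09) and Npm1 (nucleophosmin), of the nucleolus, by 0.04 (SE 0.05). Of 20 p53 targets 2 were higher and 7 lower, with a median of -0.12. Cdkn1a, the cell cycle inhibitor p21, differed by -0.16 (SE 0.25), Zmat3 by -0.46 (SE 0.19), and Trp53inp1 by -0.51 (SE 0.24).

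Among signalling genes the immediate early genes were mostly lower. Of 24 AP-1 and immediate early genes, which respond within minutes to growth factors and stress, 4 were higher and 12 lower, with a median of -0.15. Ier5 stood at 11.49 and 11.32 with wild-type IDH1 and at 11.04 and 10.98 with R132C (difference -0.40, SE 0.10, limma adjusted p = 0.269), and Klf10 and Klf6, zinc finger factors, differed by -0.43 (SE 0.17) and -0.27 (SE 0.07). Ier3, the most abundant of them, differed by -0.18 (SE 0.16), and Egr2 by 0.42 (SE 0.13) at a background level. Of 18 ERK feedback genes 1 was higher and 5 lower, with a median of -0.05. Dusp6, the phosphatase of ERK and its target, stood at 12.98 and 12.80 with wild-type IDH1 and at 12.50 and 12.39 with R132C (difference -0.45, SE 0.10, limma adjusted p = 0.214).

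Of 30 genes of TGF-beta and BMP signalling 7 were higher and 5 lower, with a median of 0.04. The ligands Bmp4 and Tgfb2 both differed by 0.64 (SE 0.15 and 0.19), at low levels. Of 32 Wnt genes 12 were higher and 3 lower, with a median of 0.02, and besides Wnt4 and Wnt7a the receptor Fzd5 differed by 0.42 (SE 0.14). Of 23 Notch genes 5 were higher and 4 lower: the receptor Notch1 differed by 0.44 (SE 0.18), and its ligands Jag2 and Jag1 by 0.41 (SE 0.15) and -0.47 (SE 0.11). Of 21 YAP and TEAD targets 3 were higher and 4 lower, with a median of -0.01. Among 39 growth factors and receptors, 5 higher and 9 lower, Fgfr3, an FGF receptor, differed by 0.88 (SE 0.28), the growth hormone receptor Ghr by -0.61 (SE 0.14), and Igfbp3, which binds insulin-like growth factors, by -0.56 (SE 0.16).

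Immune genes differed in both directions. Of 26 genes of the interferon response and antigen presentation 1 was higher and 10 were lower, with a median of -0.11. Ifi35 differed by -0.59 (SE 0.18), Bst2 (tetherin) by -0.47 (SE 0.16), and B2m, the light chain of class I molecules, by -0.34 (SE 0.09), from 12.90 and 12.96 to 12.49 and 12.70. Of 23 acute phase and inflammation genes 9 were higher and 2 lower, with a median of 0.04. Beside Lbp and Cebpd, the interleukin-1 receptor Il1r1 differed by 0.64 (SE 0.16), and Cfb, complement factor B, by -0.82 (SE 0.26). Of 24 chemokine genes 5 were higher and 3 lower, Csf1, the macrophage growth factor, differing by 0.58 (SE 0.23) and the chemokine Ccl9 by -0.98 (SE 0.27).

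Matrix genes were nearly level. Of 36 integrins, laminins and collagens 6 were higher and 7 lower, with a median of 0.01, and the laminin chain Lamc1 differed by 0.41 (SE 0.11). Of 32 secreted proteases and their inhibitors 4 were higher and 11 lower, with a median of -0.05. The abundant lysosomal protease Ctsl differed by -0.24 (SE 0.06), with R132C at 13.42 and 13.49 and wild-type IDH1 at 13.69 in both cultures, and the membrane metalloprotease Mmp14 by -0.30 (SE 0.09).

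Among the remaining metabolic lists, 20 of 50 respiratory chain subunits were higher (40%) and 6 lower (12%), with a median of 0.05. Of 33 genes of the ATF4 stress response and serine synthesis 1 was higher and 3 lower, with a median of -0.13 and a positive difference in 8 members. Of 19 genes of cholesterol synthesis none was higher and 1 lower, with a median of -0.04. Of 30 genes of fatty acid synthesis and oxidation 6 were higher and 4 lower, with a median of 0.03. Of 26 NRF2 and glutathione genes 9 were higher and 3 lower, with a median of 0.04, and of 23 imprinted genes 6 were higher and 2 lower, with a median of 0.03.

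**Figure D5:**
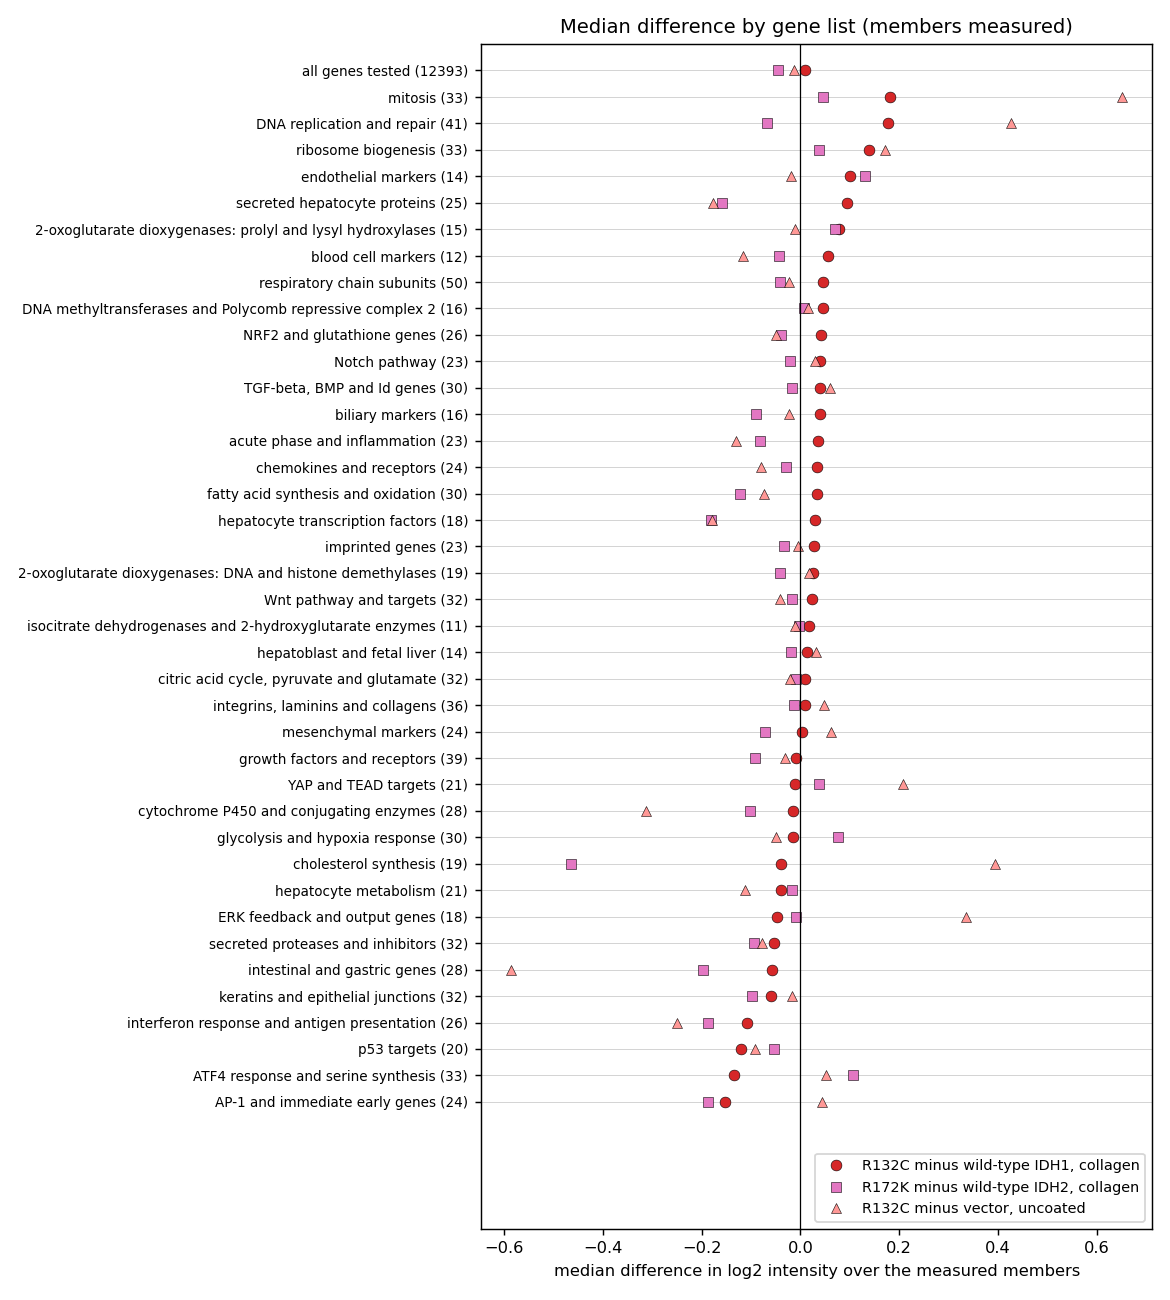
Median log2 difference over the measured members of each of 39 gene lists and of all genes tested, with the number of members in brackets: circles for R132C minus wild-type IDH1 on collagen, squares for R172K minus wild-type IDH2 on collagen, triangles for R132C minus vector on uncoated plates. The circles lie between -0.15 (AP-1 and immediate early genes) and 0.18 (mitosis). For mitosis and DNA replication the triangles lie further out at 0.65 and 0.43, and the squares lie at 0.05 and -0.07.

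Vector cells on collagen are cells without added IDH1. Doxycycline is not stated for them, so R132C and vector may differ in it as well. Against vector, a comparison that uses the same R132C arrays, Scel differed by 1.06, Lifr by 0.88, Fgf18 by 0.82, Ptprr by 0.70, Antxr1 by 0.58 and Iqgap2 by 0.45. No gene was called for R132C against vector (936 with limma p under 0.05, 7.55%) or for wild-type IDH1 against vector (128, 1.03%).

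R172K against wild-type IDH2 on collagen shares no array with the comparison described, though the same fit gives each gene's spread. A gene with a small estimated spread is thus more easily called in both. R172K replicate 1 had the lowest median of all 14 arrays, at 134.5 intensity units. The R172K replicates also correlated least of the 7 groups (r = 0.994) and differed most across genes (SD 0.31). The part of this in the values was not tested. It called 74 genes higher (0.597%) and 141 lower (1.14%). Of the 6 genes called with R132C, 4 were also called higher with R172K: Scel rose by 1.44 (limma adjusted p = 0.002), Ptprr by 1.12 (0.002), Lifr by 1.03 (0.026) and Fgf18 by 1.00 (0.011). Antxr1 differed by 0.42 (limma adjusted p = 0.10) and Iqgap2 by -0.16 (0.539). Iqgap2 stood at 8.37 and 8.53 with wild-type IDH2 and at 8.46 and 8.12 with R172K, so these groups overlapped.

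Of the 12 genes on the lower side, all had the same sign with R172K and 9 were called lower: Casd1 at -1.70, Spint1 at -1.05, Krt20 at -0.98, Irgm1 at -0.77, Cnpy2 at -0.67, Errfi1 at -0.66, Gcc2 at -0.66, Plin2 at -0.58 and Eno3 at -0.52. Cflar and Plekha2 differed there by -0.06 each. Of the genes on the higher side that were not called with R132C, Celsr1 and Dusp3 were called higher, and Mt2 differed by 0.06. Aqp8 differed by 1.17, but it stood above the lower quartile only in its R132C group on the IDH1 side and supports nothing here. Hnf4a fell by 0.66 with R172K (limma adjusted p = 0.016), Rbp4 by 1.02 (0.004), Lgals2 by 1.17 (0.002), Cdh17 by 1.18 (0.003) and Hhex by 1.18 (0.003). Id1 rose by 0.68 (limma adjusted p = 0.030) and Id3 by 0.58 (0.029), both called, and Afp differed by 0.73 (0.105).

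Over the 432 genes with R132C higher at unadjusted p under 0.05, 333 (77.1%) had the same sign with R172K, where 41% of all genes were positive. Over the 500 with R132C lower it was 452 (90.4%), where 59% of all genes were negative. The 432, which are 3.49% of all genes, held 44 of the 74 genes called higher with R172K (59.5%, or 10.2% of the 432). The 500, which are 4.03%, held 80 of the 141 called lower (56.7%, or 16.0% of the 500). None was called in the opposite direction. Because the spread of a gene is shared by both comparisons, these shared calls are no independent test of a relation. List counts with R172K are to be read beside 14.5% higher, 26% lower and a median of -0.05 over all genes. Of 33 mitosis genes 8 were higher there (24.2%) and 0 lower, with a median of 0.05. Of 41 DNA replication and repair genes 1 was higher and 6 lower (median -0.07). Of 33 ribosome biogenesis genes 7 were higher and 4 lower (0.04), and of 50 respiratory chain subunits 5 and 10 (-0.04). Of 18 hepatocyte transcription factors 0 were higher and 8 lower (-0.18), and of 25 secreted hepatocyte proteins 0 and 11 (-0.16). Of 14 hepatoblast genes 3 were higher and 5 lower (-0.02), of 16 biliary markers 1 and 5 (-0.09), and of 28 intestinal genes 0 and 14 (-0.20).

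The difference between the 2 mutant effects was tested itself. No gene was called, and 470 genes (3.79%) had an unadjusted limma p under 0.05 with the R132C effect above that of R172K and 183 (1.48%) with it below. The smallest p belonged to Iqgap2, at a difference of 0.98 (limma adjusted p = 0.739). Il1r1 differed by 1.06 (0.739), Mt2 by 1.10 (0.839), Hhex by 0.94 (0.839), and Cflar by -0.52 (0.839). For Lifr, Scel, Fgf18 and Ptprr it lay between -0.29 and 0.28. This count rests on the R172K arrays: without R172K replicate 2 the fit called 52 genes above and 33 below, and without R172K replicate 1 it called 0 and 2. On simulated data for this test, 76.1% of genes with a difference of 1 were recovered and 10.4% of those with 0.5. The simulated noise was independent between arrays, so these shares need not hold for the data. A gene that is not called may thus still differ.

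On uncoated plates R132C was set against vector rather than against wild-type IDH1, again on other arrays. The same fit gave each gene's spread, so shared calls have the same limit here. That comparison called 111 genes higher (0.896%) and 185 lower (1.49%). Of the 6 genes, 5 rose there as well: Fgf18 by 1.24 (limma adjusted p = 0.001), Lifr by 0.85 (0.048), Scel by 0.81 (0.025), Antxr1 by 0.62 (0.021) and Iqgap2 by 0.60 (0.028). Ptprr differed by 0.31 (0.229). Lifr, Scel, Antxr1 and Iqgap2 were higher on uncoated plates in vector cells already, with Iqgap2 at 9.66 and 9.87 against 8.83 and 8.74 on collagen.

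Values of other genes on uncoated plates are given beside those on collagen. Mt2, 1.16 higher with R132C on collagen, fell by 0.89 on uncoated plates (limma adjusted p = 0.045). Id3 fell by 0.66 (0.010) there, against 0.34 higher on collagen. Afp rose by 1.45 on uncoated plates (limma adjusted p = 0.003), Spint1 fell by 1.74, Epcam by 1.49 (0.002) and Cyp3a13 by 1.10 (0.001), all with the sign they had on collagen. Of the 33 genes of mitosis 15 were called higher on uncoated plates, with a median of 0.65. Of the 28 intestinal genes 12 were called lower, with a median of -0.59. Over all genes 0.896% were called higher and 1.49% lower, with a median of -0.01. Of 41 DNA replication and repair genes 1 was called higher (median 0.43). Of 18 ERK feedback genes 4 were called higher (median 0.34), whereas their median on collagen was -0.05 with none called. Over the genes at unadjusted p under 0.05 on collagen, 292 of the 432 higher (67.6%) and 385 of the 500 lower (77%) kept their sign, where 46.6% of all genes were positive and 53.4% negative, 20 and 26 were called in the same direction and 8 and 2 in the opposite one. The control differs between these comparisons (vector against wild-type IDH1), and doxycycline is stated for R132C but not for vector. Whether the R132C effect differs between surfaces was not tested here.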

How the data were processed

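RNA of 14 mouse hepatoblast cultures was read on Affymetrix mouse arrays. The authors deposited 1 intensity per probe set, and the submitters' processing notes name RMA without a version. They were positive and ran from 5.84 to 26770, a linear scale, so log2 was taken. Detection calls and the background correction were not redone. Of 22690 probe sets, 64 were controls, 20380 had 1 symbol in the platform table, 691 had several and 1555 were not in it. For each of 12393 genes the brightest such probe set by its mean over the 14 arrays was used (4956 genes had several).

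Groups follow the sample labels, and the cultures of a group are separate per the series text. Means of the 7 groups were fitted in limma 3.58.1 (R 4.3.3; lmFit, eBayes with intensity trend; 7 residual and 5.67 prior degrees of freedom), with Benjamini-Hochberg adjustment over all genes and a threshold of 0.05. On simulated data for R132C against wild-type IDH1 32.8% of genes given a log2 change of 0.5 were recovered, 89.6% at 1 and 97% at 2, with 8 false calls. The simulated noise was independent between genes and between arrays, and 67, 67 and 66 genes were changed at these sizes. In the data 3 of the 20 genes that differed by 2-fold or more were called, so these shares need not hold there.

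The comparison, the 39 gene lists (991 of 1093 places measured) and the tests were chosen with earlier results of these data known. Older symbols were matched through RefSeq synonyms. Described genes are the 12 largest rises and 12 largest falls called, without overlap, above the lower quartile and not predicted genes, with places left filled by the smallest unadjusted p; from each list the 2 of highest level, with others added after their values were seen; and a set of single genes, of which 2 are not reported here. Alternatives were averaging the probe sets of a gene, every probe set, a filter at the 30th percentile of level, cyclic loess, quantile normalization, median centring, no trend, fewer arrays, weights for arrays, a block for the replicate number, a threshold of 0.10 and each array left out in turn.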

Additional observations from a re-analysis of the deposited data

How the results depend on the processing

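The calls for R132C against wild-type IDH1 (6 higher, 0 lower) sit close to the threshold and moved with the processing. No gene was called, and 0 of the 6 remained, with probe sets averaged per gene, cyclic loess, quantile normalization, median centring and only the 10 arrays on collagen, and none with every probe set tested by itself; 875 to 1461 tests had an unadjusted limma p under 0.05 in these fits. The filter on dim genes, with 8675 genes tested, gave 6 higher and 2 lower, no trend 4 and 0 with 4 of the 6 kept, only the groups compared 4 and 3 with 1 kept, array weights 17 and 22 with 6 kept and all 24 described genes among them, and a threshold of 0.10 gave 6 and 3. Each array left out in turn gave 0 to 8 higher and 0 to 1 lower, where a group reduced to 1 array borrows its spread from the rest. The cause of these shifts was not tested. Median centring moved the median of all genes by less than 0.1.

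Replicate numbers are shared by the groups, but no source ties a number to a batch or day, and 2 numbers are too few to take them as pairs. Deviations of same-numbered arrays correlated at r = 0.111 to 0.487 among the collagen groups and at -0.041 to 0.224 between collagen and uncoated groups. With the replicate number as a block, 24 genes were called higher and 25 lower, among them 11 of the 12 described as higher, the 6 included, and 10 of the 12 described as lower. On the 10 collagen arrays alone, a fit added after the data were seen, the block gave 39 and 57. The difference between mutant effects had no call under the block.

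That difference also had no call in the other fits, except with single arrays left out, where it ranged from 0 to 52 above and 0 to 33 below. Over the settings that kept all arrays of both groups, the log2 difference of Lifr ran from 0.51 to 1.31 and that of Antxr1 from 0.41 to 0.83, both lowest with probe sets averaged, and Ptprr from 0.82 to 0.84. Averaging also moved these by over 1.5 times: Tmprss2 to 0.45, Casd1 to -0.68, Tbx3 to -0.13, Nrk to -0.66, Cebpd to 0.52, Fgfr3 to 0.47, Egr2 to 0.22, Csf1 to 0.37, Mcm3 to 0.22 and Mmp14 to -0.47. Signs turned in 4 cases, all near 0: Krt19 was -0.0035 without wild-type IDH1 replicate 1, Krt7 (0.18 without wild-type IDH1 replicate 1) -0.12 without wild-type IDH1 replicate 2 and -0.070 without R132C replicate 1, and Adh1 (main value -0.05) 0.012 without R132C replicate 1. A redone RMA background was not run, since summarised values do not allow it. Genes near the lower quartile of intensity are limited by background.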
